A study of Mus musculus with 39 samples.

Results

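Replication-dependent histone genes encode the core histones H2A, H2B, H3 and H4 and the linker histone H1. The gene table of 39 mouse duodenum libraries held 16358 symbols, of which 5 matched the older naming scheme Hist1h to Hist4h that was used to choose them: Hist1h2an and Hist1h2al (H2A), Hist1h2bp (H2B), and Hist1h4m and Hist1h4n (H4). Most genes of the same chromosomal clusters were listed under revised symbols. A match of RefSeq synonyms tied 54 of these symbols to an older Hist name, so that 59 histone-cluster genes were in the table in all: 5 for H1, 15 for H2A, 16 for H2B, 10 for H3 and 13 for H4. The 5 genes under older symbols are described first throughout, and the 54 relatives are set beside them because the same histone proteins are spread over both.

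The tissue came from wild-type C57BL/6 males aged 8 weeks, each with a cannula in a lateral ventricle of the brain. Leptin-antibiotic libraries (6) were from mice given 3 µg of leptin through the cannula after 48 h of ampicillin (1 g/L) and neomycin (0.5 g/L) in the drinking water, and Saline-antibiotic libraries (6) from mice given the same antibiotics and a saline injection. Leptin-water (13) and Saline-water (14) libraries were from mice on plain water with leptin or saline. Duodenum was taken 2 h after the injection, and all mice had been without food for 2 h before it. The question of the design is how leptin in the brain changes the duodenum, and whether oral antibiotics change that response.

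Histone messages are known for being made in bulk during S phase, when new DNA has to be packed into nucleosomes, and for being destroyed when replication ends. They are the textbook case of messenger RNA that ends in a stem-loop and not in a poly(A) tail, so they are poorly captured by poly(A) selection and are seen here because total RNA was sequenced after depletion of ribosomal RNA. The stem-loop is bound by SLBP, the stem-loop binding protein, and transcription of the clusters depends on NPAT, a coactivator that gathers at histone locus bodies. In the duodenum, dividing cells sit in the crypts. Because whole tissue was sequenced, fewer dividing cells and less histone RNA per cell cannot be told apart.

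The stem-loops of 3 of the 5 genes are shown because they are the feature that marks this class of message. Capitals mark the 16-base match in the GENCODE vM21 transcripts (GRCm38), searched on the sense strand as GG, NN, CTTTT, N, AG, NN and CC in a row, where N is any base.
Hist1h2bp: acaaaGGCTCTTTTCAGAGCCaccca
Hist1h4m: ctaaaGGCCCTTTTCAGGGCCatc
Hist1h4n: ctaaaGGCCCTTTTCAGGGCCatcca
The motif was found in 36 of 58 histone-cluster genes with a transcript and in 89 of 55341 genes overall (0.161%). The core of Hist1h2bp, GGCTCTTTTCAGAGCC, was in 19 of the family's genes, and that of the H4 pair, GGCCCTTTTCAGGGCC, in 7. Of the 22 without a match, 11 have a model that holds nothing beyond the reading frame, so their 3-prime ends were not read. Hist1h2an (393 bases) is one of these, and the 339-base model of the pseudogene Hist1h2al does not hold these letters.

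The 5 genes lie on chromosome 13 (GRCm38). Hist1h2an (chr13:21786826-21787218, minus strand) and Hist1h2bp (chr13:21787461-21789213, plus strand) are neighbours that are read away from each other, and the stretch between their RefSeq starts is printed because both genes are read out from it. Its 239 bases run on the plus strand of GRCm38.p6, chr13:21787249-21787487, and capitals mark CCAAT and TATAAA on either strand (ATTGG and TTTATA are their reverse complements).
Hist1h2an to Hist1h2bp: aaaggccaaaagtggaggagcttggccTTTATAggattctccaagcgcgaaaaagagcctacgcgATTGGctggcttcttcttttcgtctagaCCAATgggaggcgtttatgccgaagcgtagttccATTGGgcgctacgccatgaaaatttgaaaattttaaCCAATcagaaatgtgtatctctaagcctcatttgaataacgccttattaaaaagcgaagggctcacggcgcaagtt
The stretch held 4 CCAAT and 1 TATAAA. Hist1h4m (chr13:21811746-21812147, plus strand) and Hist1h4n (chr13:21831767-21832196, minus strand) are near-copies of each other. Their 312-base reading frames were identical, and their RefSeq promoter windows matched at 298 of 299 aligned bases. The 250 bases before the start of Hist1h4m (GRCm38.p6, chr13:21811496-21811745, plus strand) are shown as the form that both share, with the same marks.
before Hist1h4m: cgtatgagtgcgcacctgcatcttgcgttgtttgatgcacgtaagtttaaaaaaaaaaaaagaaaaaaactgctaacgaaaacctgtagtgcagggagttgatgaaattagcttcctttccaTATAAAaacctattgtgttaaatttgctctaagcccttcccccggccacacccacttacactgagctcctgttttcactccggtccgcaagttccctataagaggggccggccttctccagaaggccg
It held 1 TATAAA and 0 CCAAT. Over the 52 histone-cluster genes with a RefSeq promoter window of 300 bases, 82.7% held CCAAT and 63.5% TATAAA, against 37.4% and 13.6% of 32851 windows of all genes, and 51.9% held both, against 5.31%. A match of letters is a description and not a binding site. Hist1h2al lies apart from the others (chr13:51202727-51203065, minus strand), and RefSeq lists it as a transcribed pseudogene, H2af-ps2.

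Near-copies limit what a count can be tied to. Of the 50-base windows of a transcript, the read length used, 10.2% were found in no other gene for Hist1h4m, 14.4% for Hist1h4n, 14.2% for Hist1h2an, 32.4% for Hist1h2al and 55.9% for Hist1h2bp. How reads with several matches were counted is not given in the sources used here, so the split of reads between near-copies is uncertain for every such gene, and sums over a class are less exposed to it.

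Library totals ranged from 30207536 to 67870777 counts (median 48282125), and the 5 genes had 215 to 3643 counts each per library. Library names were of 2 kinds in the labels, here called set MT (24 libraries, 6 of each group) and set M (15 libraries, 7 Leptin-water and 8 Saline-water), and what sets them apart is not stated. Enterocyte markers summed to 24482 to 55515 CPM (counts scaled to library size by TMM) over 17 genes, with none at 0. Exocrine pancreas genes stood high in 6 libraries (Leptin-antibiotic 3, Saline-antibiotic 1, 2 and 5, Leptin-water 6 and 10). Saline-water 13 stood apart in its histone genes and is described at the end. Whether libraries came from different mice is not written in the labels, so p-values measure only the spread between these samples. Single-gene tests are edgeR quasi-likelihood tests with Benjamini-Hochberg adjustment over all genes, and a gene is called below an adjusted p of 0.05.

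Hist1h4n, one of the identical H4 pair, had 24.9, 28.9 and 52.7 CPM (lowest, median, highest) in Leptin-antibiotic libraries, 29.7, 33.7 and 46.5 in Saline-antibiotic, 25.7, 33.6 and 40.1 in Leptin-water and 24.5, 34.1 and 57.1 in Saline-water libraries. Its partner Hist1h4m had 23.9, 27.6 and 49.7 CPM, 26.5, 30.8 and 43.4 CPM, 22.5, 29.4 and 35.6 CPM, and 23.0, 30.7 and 43.7 CPM in the same order of groups. For both, all 4 groups overlapped. The highest values of all 5 genes among the antibiotic groups were those of the same libraries, Leptin-antibiotic 3 and Saline-antibiotic 1, and Hist1h4n was highest of all in Saline-water 6.

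The H2A gene Hist1h2an had 10.6, 12.3 and 19.1 CPM in Leptin-antibiotic libraries, 12.2, 14.0 and 23.2 in Saline-antibiotic, 8.43, 12.7 and 15.4 in Leptin-water and 8.78, 13.2 and 22.2 in Saline-water libraries. The H2B gene Hist1h2bp, on the other side of the shared stretch, had 7.64, 8.45 and 18.0 CPM in Leptin-antibiotic libraries, 9.44, 10.5 and 17.1 in Saline-antibiotic, 4.76, 7.61 and 11.8 in Leptin-water and 5.82, 8.43 and 14.9 in Saline-water libraries. The pseudogene Hist1h2al had 7.20, 9.46 and 13.9 CPM, 7.65, 10.5 and 14.2 CPM, 5.81, 7.78 and 10.9 CPM, and 7.07, 8.57 and 13.4 CPM in that order. Each of these overlapped between all groups as well. Per kilobase of exon, averaged over 39 libraries, Hist1h4n (79.5 ± 17.0 CPM per kb, SD) and Hist1h4m (76.55 ± 15.05) ranked 6th and 8th of 58 histone-cluster genes, and Hist1h2an (34.7 ± 8.69), Hist1h2al (26.9 ± 5.92) and Hist1h2bp (13.3 ± 4.21) ranked 34th, 41st and 48th. This order depends on the exon length of each gene model, from 312 bases (H4c12) to 7425 (H1f3). H1f3, for example, was 3rd by CPM and 49th per kilobase.

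**Figure D1:**
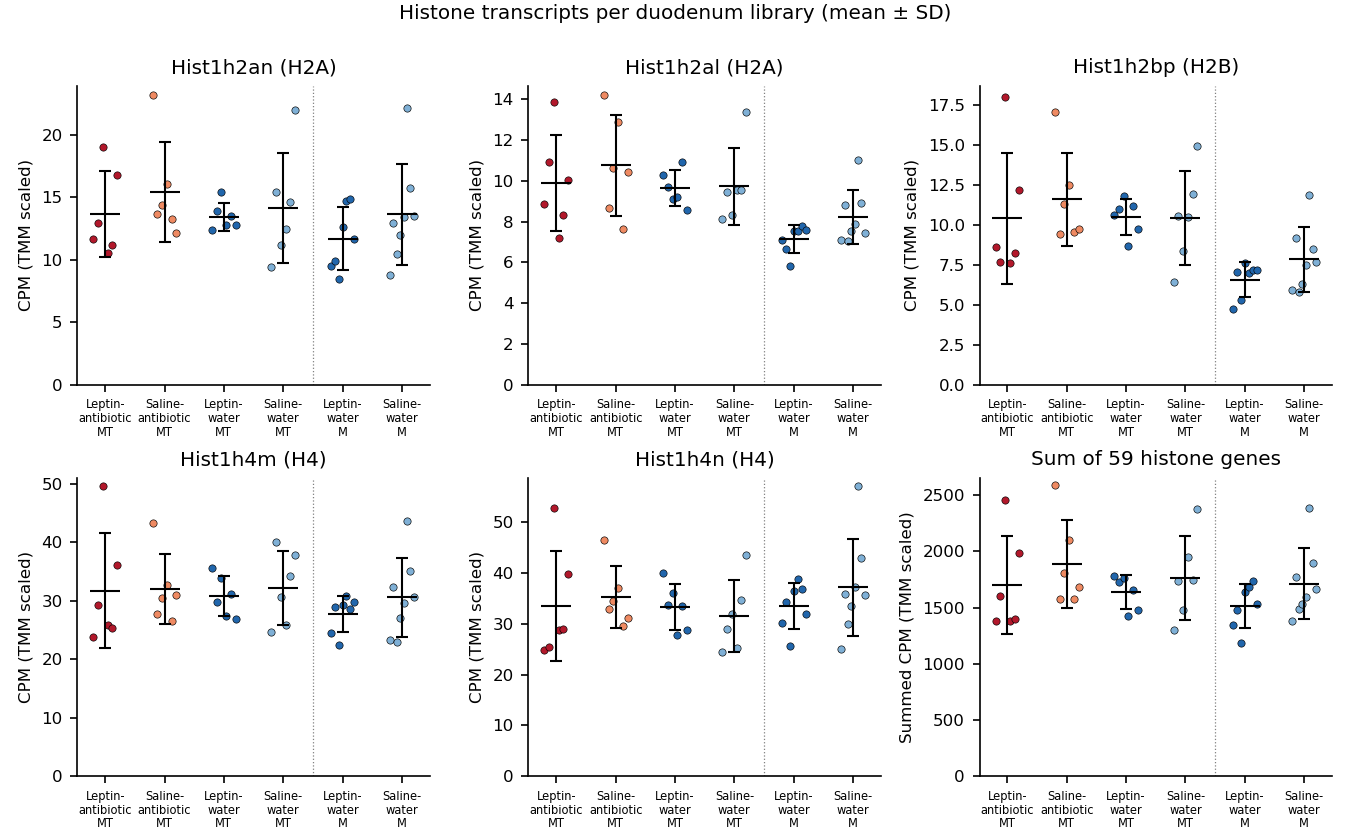
CPM (TMM scaled) of the 5 genes under older Hist symbols and of the sum of 59 histone genes in each of 39 libraries, by group and set. Points are libraries and bars are mean ± SD. All groups of a set overlap, and Hist1h2bp and Hist1h2al lie lower in set M than in set MT.

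All 59 genes together summed to 1377, 1500 and 2457 CPM (lowest, median, highest) in Leptin-antibiotic, 1575, 1748 and 2587 in Saline-antibiotic, 1426, 1692 and 1785 in the Leptin-water and 1302, 1741 and 2374 in the Saline-water libraries of set MT, and to 1188, 1532 and 1740 in the Leptin-water and 1377, 1628 and 2385 in the Saline-water libraries of set M. None of the 13 Leptin-water libraries passed 1785, and the highest library of every other group and set stood at 2374 or above. The sum took 0.118% to 0.265% of a library's counts. In set MT, H4 genes made up 28.2% ± 1.37 of the sum, H3 22.4% ± 0.96, H1 20.96% ± 1.37, H2B 15.995% ± 0.92 and H2A 12.5% ± 0.75 (SD, n = 24). The shares in set M were 27.2% ± 0.85, 21.2% ± 0.81, 23.2% ± 1.38, 15.9% ± 0.80 and 12.5% ± 0.55 (n = 15).

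Within classes, levels are given per kilobase of exon (mean ± SD, n = 39). Of the 3 H4 genes with the most CPM, H4c8 had 126 ± 24.7 CPM per kb, the highest of the family, H4c4 70.2 ± 14.97 and H4c3 66.0 ± 10.4, while H4c9 was the H4 gene with the least CPM (18.8 ± 4.15 per kb). Among H3 genes, H3c2 had 77.8 ± 22.4, H3c3 70.7 ± 14.9 and H3c6 52.4 ± 13.3, and H3c11, with the least CPM, 56.6 ± 13.1. The H2B genes with the most CPM were H2bc4 (43.2 ± 7.76 per kb), H2bc8 (55.5 ± 12.6) and H2bc15 (72.6 ± 18.7), and those of H2A were H2ac15 (59.8 ± 13.3), H2ac20 (43.6 ± 10.5) and H2ac4 (47.2 ± 10.98). Per kilobase, H2bc18 (49.9 ± 15.2) and H2bc12 (46.01 ± 14.2) stood above H2bc4, and H2ac12 (49.7 ± 13.2) above H2ac4 and H2ac20. The linker histones H1f2 (66.7 ± 10.1), H1f4 (46.0 ± 8.03) and H1f3 (11.2 ± 2.05) had the most H1 CPM, and H1f1 (52.1 ± 11.6) the least. Per kilobase, H1f5 (72.2 ± 16.2) stood above all of these, and H3c13 (88.5 ± 22.8) above H3c2. Likewise H4c12 (116 ± 26.2) and H4c6 (98.4 ± 22.5) stood above H4c4 and H4c3. Neighbouring genes in the order per kilobase differed by less than the SD of the higher one, other than between H2ac21 and H2bc9 and at the bottom, where H2bc1 (3.39 ± 1.10) and H2ac1 (1.13 ± 0.59), known in mouse as testis histones, stood on either side of H2bc21 (2.14 ± 0.31), known from mouse olfactory neurons as an H2B made outside S phase. H2bc12, H2bc18, H2ac12, H1f5, H3c13, H4c12, H4c6, H2bc21, H2ac21 and H2bc9 are named after their values were seen, as is H4c11 further on.

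**Figure D2:**
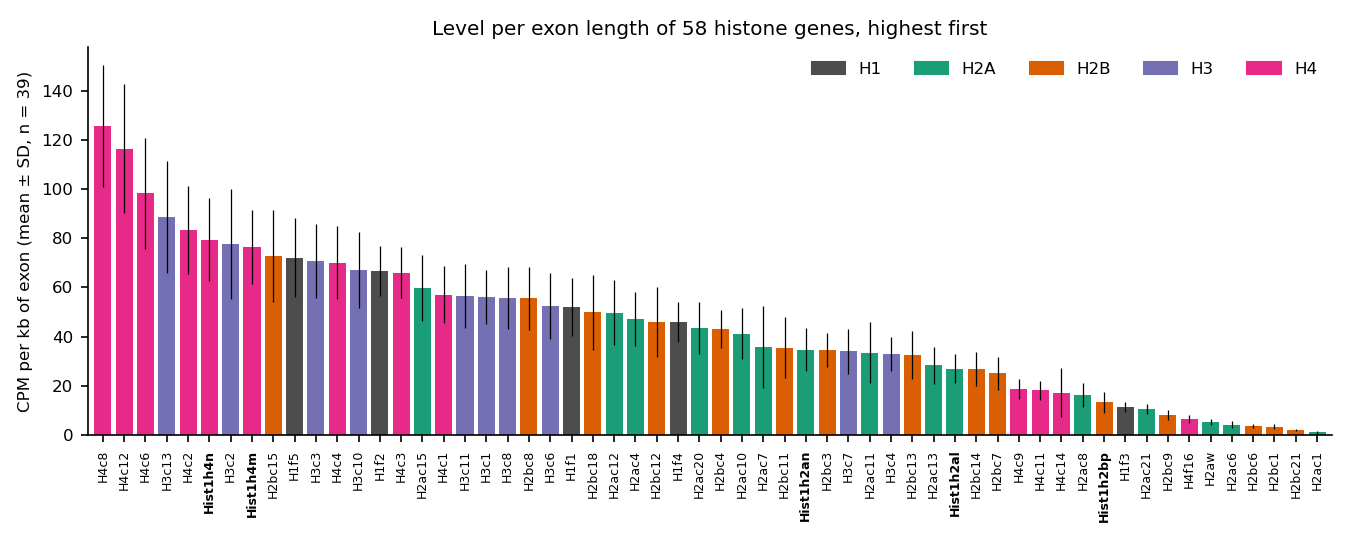
Mean CPM per kilobase of exon of 58 histone-cluster genes with a GENCODE vM21 model, highest first, coloured by histone class. Bars are means over 39 libraries with SD, and gene names in bold are the 5 under older symbols. H4 genes hold the first 3 places, and Hist1h4n and Hist1h4m are 6th and 8th. The order depends on the exon lengths of the models, which run from 312 to 7425 bases.

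Leptin in mice on water left no histone gene past the threshold. Of the 5 genes, 0 were called by edgeR, as were 0 of all 59, against 0.325% of 16329 genes (0.294% higher, 0.0306% lower). At an unadjusted p under 0.05 there were 0 of 5 and 6 of 59, against 11.3% of all genes, DESeq2 called 2 of 59 (0 of the 5), and limma voom 0. The 5 genes had log2 fold changes of −0.16 (Hist1h2an, SE 0.13, adjusted p = 0.677), −0.14 (Hist1h2bp, SE 0.12, adjusted p = 0.696), −0.12 (Hist1h2al, SE 0.08, adjusted p = 0.596), −0.11 (Hist1h4m, SE 0.09, adjusted p = 0.693) and −0.05 (Hist1h4n, SE 0.10, adjusted p = 0.896). The sign was negative for 58 of 59 histone genes, with a median of −0.14, where 47.0% of all genes were positive and the median was −0.01. With upper-quartile scaling 57 of 59 were negative, and in set MT alone 41 of 59. The summed log2 CPM of the 5 genes differed by −0.15 in set M and by 0.01 in set MT (Leptin-water minus Saline-water). Genes of 1 family are not independent of each other, since they moved together from library to library.

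The lowest p-values belonged to linker histones. H1f4 had 66.1, 80.2 and 103 CPM (lowest, median, highest) in Leptin-water, against 73.1, 93.4 and 121 CPM in Saline-water libraries (log2 −0.24, SE 0.07, adjusted p = 0.0937). H1f2 had 81.1, 93.4 and 133 CPM in Leptin-water, against 91.6, 112 and 135 CPM in Saline-water (log2 −0.24, SE 0.06, adjusted p = 0.0937). For both genes the groups overlapped over most of their range. DESeq2 put both past the threshold, with adjusted p = 0.0343 for H1f4 and 0.0397 for H1f2. In edgeR both passed without Saline-water 5 (adjusted p = 0.0473 for H1f4 and 0.0461 for H1f2), H1f4 without Saline-water 10 (adjusted p = 0.0409) and H1f2 without Leptin-water 6 (adjusted p = 0.0271).

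The proliferation marker Mki67 had 169 ± 18.5 CPM in Leptin-water (n = 13), against 180 ± 35.2 CPM in Saline-water (n = 14; log2 −0.10, edgeR adjusted p = 0.715). The leptin effect in set MT was set against that in set M: 0 of 59 histone genes differed by edgeR, against 0.00612% of 16329 genes, with 1 of 59 at an unadjusted p under 0.05 (9.62% of all genes) and 0 called by DESeq2 or limma voom. That 1 gene was H2bu1-ps, an H2B pseudogene (difference 0.85, SE 0.38, adjusted p = 0.447), which stayed at or under 0.82 CPM in all water libraries. The next was H2bc13 (0.48, adjusted p = 0.531).

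On antibiotics the picture was of the same kind. In the comparison of Leptin-antibiotic with Saline-antibiotic, edgeR called 0 of 5 and 0 of 59 histone genes, against 0.447% of 16340 genes (0.416% higher, 0.0306% lower), with 0 of 59 at an unadjusted p under 0.05 (17.03% of all genes) and 0 called by DESeq2 or limma voom. Log2 fold changes of the 5 were −0.16 for Hist1h2an, −0.14 for Hist1h2bp, −0.11 for Hist1h2al, −0.07 for Hist1h4n and −0.0013 for Hist1h4m, with SEs of 0.15 to 0.20. The median of 59 was −0.16, against −0.02 over all genes, and 54 of 59 were negative. Without the 4 antibiotic libraries high in pancreas genes the median was −0.28, and edgeR still called 0 of 59. The lowest p-values were those of H2bu1-ps (0.277, 0.387 and 0.852 CPM in Leptin-antibiotic, against 0.451, 0.627 and 1.15 CPM in Saline-antibiotic, log2 −0.59, adjusted p = 0.295) and H2aw (8.35, 11.4 and 15.6 CPM, against 11.3, 13.4 and 19.6 CPM, log2 −0.29, adjusted p = 0.323). Mki67 had 171 ± 17.6 CPM in Leptin-antibiotic, against 226 ± 50.6 CPM in Saline-antibiotic (n = 6 each, log2 −0.39, SE 0.14, edgeR adjusted p = 0.172), and Pcna 62.9 ± 7.52 against 62.1 ± 6.64 CPM (log2 0.03, adjusted p = 0.892).

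Antibiotics in saline-injected mice (Saline-antibiotic against Saline-water of set MT) gave 0 of 5 and 0 of 59 histone genes called by edgeR, against 0.177% of 16340 genes (0.11% higher, 0.0673% lower). At an unadjusted p under 0.05 there were 0 of 59, against 12.3% of all genes, and DESeq2 and limma voom called 0. The log2 fold changes of the 5 were 0.17 (Hist1h4n), 0.15 (Hist1h2bp), 0.15 (Hist1h2al), 0.13 (Hist1h2an) and −0.01 (Hist1h4m). Of the 59, 51 were positive with a median of 0.12, where 51.8% of all genes were positive and the median was 0.01. Some Saline-antibiotic libraries were high in pancreas genes, and the median without them is not given here. H2aw had the lowest p (11.3, 13.4 and 19.6 CPM in Saline-antibiotic, against 9.75, 11.3 and 15.9 CPM in Saline-water, log2 0.29, adjusted p = 0.452). H1f1 followed, with 37.0, 43.5 and 63.6 CPM in Saline-antibiotic, against 21.1, 34.6 and 56.7 CPM in Saline-water (log2 0.36, adjusted p = 0.454).

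Antibiotics in leptin-injected mice (Leptin-antibiotic against Leptin-water of set MT) again gave 0 of 5 and 0 of 59 by edgeR, against 2.12% of 16340 genes (1.76% higher, 0.355% lower), with 0 of 59 at an unadjusted p under 0.05 (18.7% of all genes) and 0 by DESeq2 or limma voom. The 5 genes had log2 fold changes of 0.00074 (Hist1h2bp) to 0.054 (Hist1h4m). The median of 59 was 0.03, and it turned to −0.02 with upper-quartile scaling, −0.07 with limma voom and −0.10 without the libraries high in pancreas genes, so no direction is given. H2bc4 had the lowest p, with 48.6, 54.0003 and 76.4 CPM in Leptin-antibiotic, against 39.3, 49.5 and 56.9 CPM in Leptin-water (log2 0.23, adjusted p = 0.295), followed by H4c3 (0.20, adjusted p = 0.404). The interaction of leptin with antibiotics, the leptin effect on antibiotics minus that on water, was called by edgeR for 0 of 59 histone genes, against 0.0% of 16340 genes (6.19% of them at an unadjusted p under 0.05), with 0 of 59 at an unadjusted p under 0.05 and 0 by DESeq2 or limma voom. These comparisons share libraries with each other, so their signs are not separate evidence. The lowest p-values of the interaction were those of H2bu1-ps (−0.78, adjusted p = 0.786) and H4c14 (0.58, adjusted p = 0.815).

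**Figure D3:**
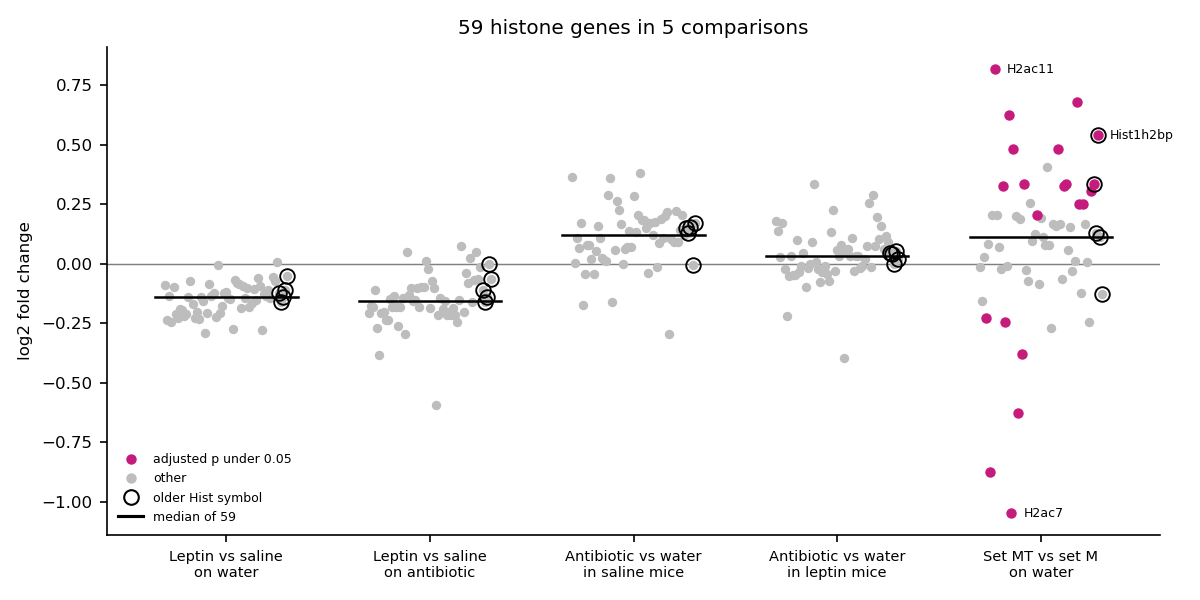
Log2 fold changes of 59 histone genes in 5 comparisons (edgeR, as named on the axis). Each point is a gene, magenta points have an adjusted p under 0.05, open circles are the 5 genes under older symbols, and bars are medians. No gene is magenta in the 4 comparisons of leptin or antibiotics, and 21 are in that of the sets.

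The rest of the histone supply chain was also without calls in the leptin comparisons. Of 20 genes for transcription and 3-prime processing of histone messages and 16 histone chaperones, 0 were called by edgeR for leptin on water or on antibiotics, nor were any of 41 genes of replication and S phase or 24 of G2 and mitosis. Medians for leptin on antibiotics were −0.21 for replication (36 of 41 negative) and −0.33 for G2 and mitosis (24 of 24 negative), beside −0.02 over all genes. Slbp had 27.02 ± 1.84 CPM in Leptin-antibiotic, against 27.6 ± 2.86 CPM in Saline-antibiotic, and Npat 21.4 ± 1.69 against 24.6 ± 3.13 CPM (edgeR adjusted p = 0.898 and 0.219). Of 17 enterocyte and 15 intestinal stem cell genes, 0 were called for leptin on antibiotics or on water. For leptin on antibiotics, 17 of 17 enterocyte genes were positive (median 0.38) and 14 of 15 stem cell genes negative (−0.21). For leptin on water, 14 of 17 enterocyte genes were positive (0.10) and 13 of 15 stem cell genes negative (−0.09). Their part in the histone values was not tested.

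Libraries of 1 group differed in histone RNA by more than the groups did, and they differed along the whole family at once. Differences of group means of the summed log2 CPM of 59 genes ranged from −0.17 (leptin on water, set M) to 0.10 (antibiotics in saline-injected mice), where the pooled SD between libraries was 0.23 to 0.31. Values were taken as deviations of log2 CPM from the mean of the library's own set and group, so that no group difference enters. Each gene was compared with the sum of the other 58, and Pearson's r had a median of 0.91 over 59 genes in set MT (n = 24 libraries) and 0.94 in set M (n = 15), and was above 0.5 for 56 of 59 genes in each. The 10 pairs among the 5 genes had r of 0.71 (Hist1h2al with Hist1h4n) to 0.92 (Hist1h2bp with Hist1h2an) in set MT and of 0.84 to 0.96 in set M. The divergent neighbours Hist1h2an and Hist1h2bp had 0.92 and 0.85, and the H4 near-copies 0.88 and 0.95. Shared reads between near-copies enter these values, and their part was not tested. Only H2bc21, the H2B known from outside S phase, had a negative r with the other 58 in both sets (−0.12 in MT, −0.15 in M).

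Mki67 encodes a protein of dividing cells and Pcna the sliding clamp of DNA polymerase. The summed log2 CPM of 59 genes had r = 0.72 with Mki67 in set MT (Spearman's rho 0.68) and 0.74 in set M (rho 0.70), again as deviations from group means. Without the 2 libraries farthest from the Mki67 median, r was 0.61 and 0.60. For Pcna, r was 0.77 in set MT (rho 0.79) and 0.61 in set M (rho 0.58), and 0.72 and 0.37 without the 2 libraries farthest from the Pcna median, so in set M the relation with Pcna rested largely on Saline-water 3 and 6. The sum of the 5 genes gave 0.61 and 0.72 with Mki67 and 0.72 and 0.66 with Pcna in the same order of sets. Mki67 and Pcna had r = 0.45 with each other in set MT and 0.78 in set M. Points of a correlation share library size and scaling, and no p is given.

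**Figure D4:**
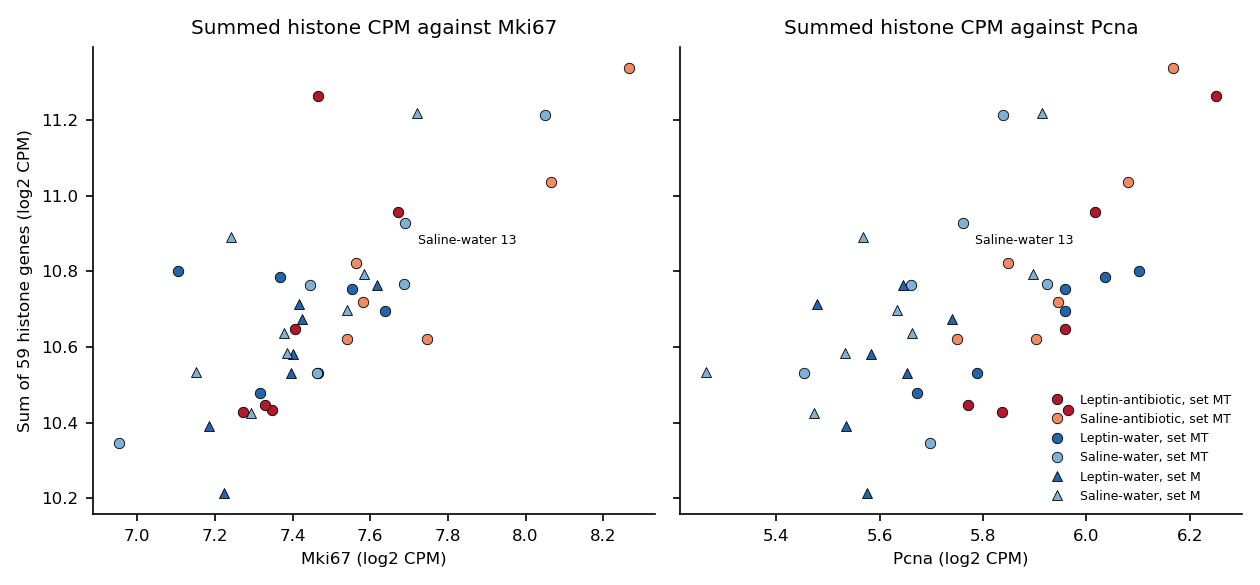
Summed CPM of 59 histone genes against Mki67 (left) and Pcna (right), log2 CPM in each of 39 libraries, with circles for set MT, triangles for set M and colour for group. Within sets, Pearson's r of the plotted values is 0.73 (MT) and 0.72 (M) for Mki67 and 0.61 (MT) and 0.58 (M) for Pcna.

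Of the single genes, Hist1h2an (0.78) and Hist1h2bp (0.72) were nearer to Mki67 in set MT than Hist1h2al (0.63), Hist1h4n (0.52) and Hist1h4m (0.46), and in set M the 5 lay between 0.66 and 0.81. Over all 59 the median r with Mki67 was 0.69 in set MT and 0.70 in set M, and with Pcna 0.69 and 0.59. For every unit of Mki67 CPM there were 9.33 ± 1.49 CPM of histone messages in set MT and 9.55 ± 1.14 in set M (SD, n = 24 and 15). The lowest ratio of group means was that of Saline-antibiotic (8.401 ± 0.77), against 9.29 ± 0.84 in Saline-water of set MT (n = 6 each), while Leptin-antibiotic had 9.87 ± 2.03 and Leptin-water of set MT 9.75 ± 1.79. The ranges of these groups overlapped.

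Of 13070 genes that averaged 1 or more on the log2 CPM scale, 8 outside the family were named for the highest r with the histone sum, taking the lower of the 2 sets for each gene. They were H2ax, the DNA-damage variant of H2A (0.89 in set MT, 0.91 in set M), the mitochondrial protein gene C1qbp (0.94, 0.89), Ssrp1, a subunit of the FACT histone chaperone (0.88, 0.87), Ccnb2, a mitotic cyclin (0.93, 0.86), Ruvbl2, an ATPase of chromatin remodelling complexes (0.87, 0.85), the prohibitin gene Phb2 (0.93, 0.85), the mitotic kinase gene Aurka (0.85, 0.85) and Smarcd2, of the SWI/SNF complex (0.83, 0.86). On the same scale Mki67 ranked 97th, Pcna 298th, Slbp 1053rd and Npat 2419th. Gene lists were taken as deviations of the log2 of their summed CPM, so the most abundant genes of a list weigh most. In set MT and set M, r was 0.89 and 0.81 for replication and S phase and 0.80 and 0.84 for G2 and mitosis. For replacement histone variants it was 0.91 and 0.79, for histone message processing 0.72 and 0.66, and for chaperones 0.60 and 0.56. The intestinal stem cell list gave 0.63 and 0.26, enterocytes −0.18 and 0.08, smooth muscle −0.49 and −0.26, and other transcripts without a poly(A) tail −0.08 and −0.04. This last list holds Rn45s, the ribosomal RNA precursor, and summed to 31754 to 140728 CPM.

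By edgeR, histone genes were called only between the sets, where a large share of all genes was called too. Between set MT and set M on water, with injection as a term, edgeR called 21 of 59 histone genes, against 28.2% of 16329 genes, which is 35.6% of the histone genes. Of these 15 were higher in set MT (14.4% of all genes were) and 6 lower (13.8%), and the median of 59 was 0.11, beside 0.01 over all genes. Among the 5, Hist1h2bp was higher, with 6.41, 10.6 and 14.9 CPM in set MT, against 4.76, 7.16 and 11.9 CPM in set M (log2 0.54, SE 0.12, adjusted p = 0.000784). Hist1h2al was higher too, with 8.11, 9.50 and 13.4 CPM in set MT, against 5.81, 7.53 and 11.0 CPM in set M (log2 0.33, SE 0.08, adjusted p = 0.00178). The other 3 were not called: Hist1h2an had log2 0.13 (adjusted p = 0.480), Hist1h4m 0.11 (0.383) and Hist1h4n −0.13 (0.391). No histone gene separated the sets without overlap, and the share of all genes that did so is not given here.

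Between the sets, the lowest p-values were those of a pair of H2A genes that are near-copies. H2ac7 had 9.87, 14.96 and 20.8 CPM in set MT, against 19.9, 30.7 and 51.5 CPM in set M (log2 −1.05, SE 0.13, adjusted p = 9.35e-07). H2ac11 had 12.5, 19.0 and 28.6 CPM in set MT, against 7.30, 11.3 and 18.9 CPM in set M (log2 0.82, SE 0.12, adjusted p = 8.16e-06). The ranges of H2ac7 overlapped only at their ends, and those of H2ac11 overlapped in part. The antibiotic libraries of set MT lay with the water libraries of their set, at 10.1 to 24.1 CPM for H2ac7 and 14.1 to 32.5 CPM for H2ac11. Reading frames of the 2 genes differ at 2 of 393 bases, and 32.9% and 21.1% of their 50-base windows are found in no other gene. Their sum was 33.7 ± 7.44 CPM in set MT on water (n = 12), against 41.0 ± 10.6 CPM in set M (n = 15).
The stem-loops of the 2 genes are shown because they differ only in the bases after the shared core.
H2ac7: acaaaGGCTCTTTTCAGAGCCatcca
H2ac11: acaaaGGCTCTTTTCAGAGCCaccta

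Of the other calls between sets, H2ac6 (log2 0.62, adjusted p = 0.000613), the H3 gene H3c2 (0.48, adjusted p = 0.000789) and the H4 gene H4f16 (0.30, adjusted p = 0.00401) were higher in set MT, and the testis histones H2ac1 (−0.88, adjusted p = 0.00472) and H2bc1 (−0.63, adjusted p = 0.00302) lower. Without Saline-water 13 there were 18 calls, all of them among the 21. In other lists, read against 14.4% of all genes higher and 13.8% lower, 8 of 41 replication genes were higher and 0 lower, 7 of 24 G2 and mitosis genes higher and 0 lower, and 10 of 14 macrophage and dendritic cell genes higher and 0 lower, while 6 of 15 stem cell genes were lower and 0 higher. Macrophage and dendritic genes summed to 237 to 342 CPM in the water libraries of set MT, against 171 to 264 CPM in those of set M. Calls went both ways among the 20 genes for transcription and 3-prime processing of histone messages (7 higher, 3 lower). They did so too among the 16 histone chaperones (5 higher, 2 lower). Npat, of the first of these lists (log2 0.22, adjusted p = 0.000172), and Pcna (0.21, adjusted p = 0.0161) were higher in set MT, and Mki67 (0.10, adjusted p = 0.411) was not called. Of 7 measured transcripts without a poly(A) tail outside the histones, 6 were lower in set MT and 0 higher, with Snord118, a small nucleolar RNA of ribosome making, at −1.78 (adjusted p = 6.76e-08) and Rpph1, the RNA of RNase P, at −0.74 (adjusted p = 1.85e-07). The part of these in the histone differences was not tested, and set cannot be told apart from whatever else the names stand for.

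One library had the widest spread among its histone genes, in both directions. In Saline-water 13 (set MT) deviations from the median of the library's set and group had an SD of 0.61 over 59 genes on the log2 scale, and the next library, Leptin-antibiotic 3, had 0.23. It was first over all genes as well (0.34 over 9917 genes). Saline-water 13 was above every other of the 39 libraries for 7 histone genes and below every other for 6, while its summed histone RNA lay within that of its group. Some other libraries were extreme for more histone genes, but each at a single end. Saline-antibiotic 1 was above all others for 29, and Leptin-water 3 was below all others for 25. The share of all genes for which Saline-water 13 lay outside the other libraries is not given here. Of the 6 genes of the Hist2 cluster on chromosome 3, 4 were above all other libraries, against 3 of the 50 Hist1 genes on chromosome 13. This grouping was chosen after the values were seen. H4c14, the H4 gene of that cluster, had 116 CPM, against 21.3 to 33.9 in the other 5 Saline-water libraries of its set, and 99.0% of its 50-base windows are found in no other gene. Its Hist2 neighbours H3c13 (83.4 CPM, against 30.6 to 64.9), H2bc18 (37.99, against 11.4 to 30.1) and H2ac20 (36.1, against 17.8 to 33.6) were also high, while H2bc21 (4.99) and H2ac21 (3.98) were within range. Of the 50-base windows of H3c13 and of H2bc18, 0.0% are found in no other gene. Each shares 100% of its windows with the gene model Gm20628, and H2bc18 shares none with the other histone-cluster genes of the table. How reads in such shared models were counted is not given, so the counts of H3c13 and H2bc18 are uncertain. H4c11 (5.87 CPM, against 12.4 to 19.9) and H4c9 (6.02, against 10.4 to 18.5), H4 genes of the Hist1 cluster, were low. The 5 genes under older symbols were within range in this library. Without it edgeR called 0 of 59 histone genes for leptin on water and for antibiotics in saline-injected mice, as with it. Without it, the H4c14 difference between sets was 0.33 on the log2 scale and with it 0.68, and both were called (adjusted p = 0.00557 and 0.0174).

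**Figure D5:**
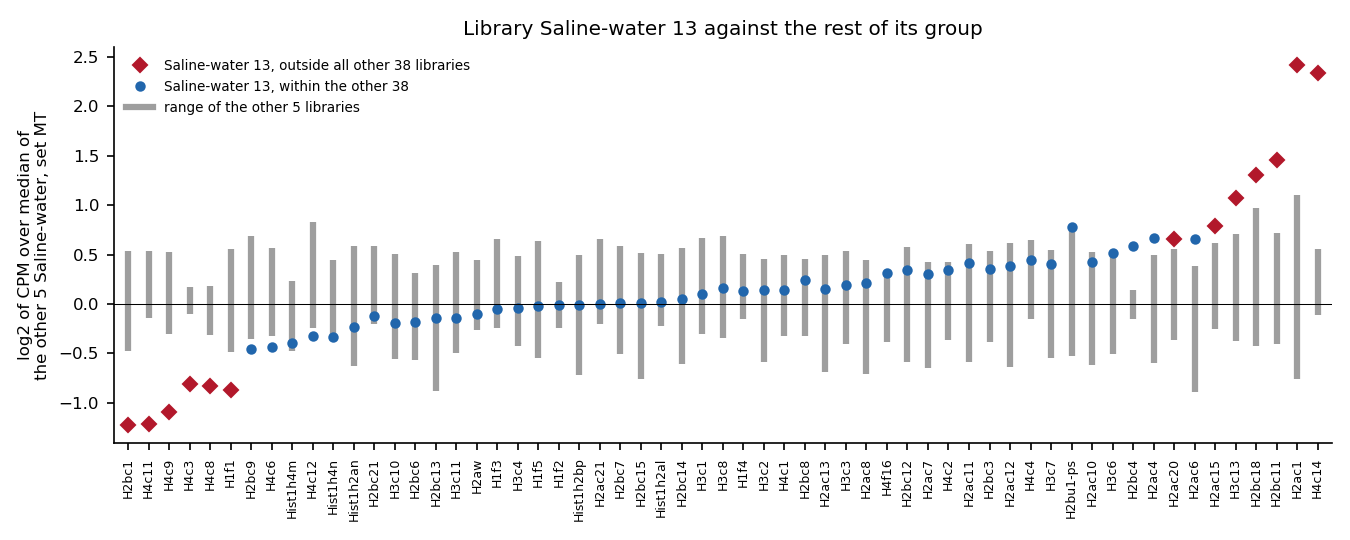
CPM of 59 histone genes in library Saline-water 13 over the median of the other 5 Saline-water libraries of set MT, on a log2 scale. Grey bars give the range of those 5, and red diamonds are genes for which the library lies outside all 38 others. H4c14 and H2ac1 are more than 2 units up, and H2bc1, H4c11 and H4c9 about 1 unit down.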

How the data were processed

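Total RNA (150 ng per library) from duodenum was depleted of ribosomal RNA and sequenced as stranded pairs of 50 bases, per the labels' protocols. The authors deposited 1 table of whole-number counts per gene symbol for 39 libraries, already filtered to 16358 symbols; per the submitters' processing notes the tools were FastQC, HISAT2, featureCounts and edgeR 3.42.0 on mm10, with settings that no source used here gives. Counts were tested with edgeR 4.0.16 (R 4.3.3): TMM scaling, filterByExpr, robust quasi-likelihood F tests, Benjamini-Hochberg adjustment over all genes and a threshold of 0.05. Leptin on water used 27 libraries with set as a term, and comparisons with antibiotics used the 24 libraries of set MT. CPM are TMM scaled. In correlations, log2 CPM of the single genes ranked against the histone sum have a prior count of 2, and log2 values of summed CPM have no prior count. DESeq2 1.42.0, limma 3.58.1 (voom), other scalings, no filter and leaving out each library were alternatives. Tables were made with Python 3.11.15, pandas 2.3.3 and SciPy 1.17.1.

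The symbols, lists and tests were chosen with earlier results of these data known. Genes named are the 5 matching symbols, in each histone class the 3 with the highest and the 1 with the lowest mean log2 CPM, up to 8 called genes and the 2 of lowest p in each comparison, up to 4 called genes of each list, Mki67, Pcna, Slbp and Npat, and the 8 genes outside the family that followed the histone sum most closely; others are said to be named after their values were seen. The fits were first tested on simulated data. Every one of 109 library pairs from the same set and group differed beyond counting noise (chi-square per degree of freedom 19.7 to 201), so none was counted as a repeat. Over 18 pairs of same-numbered libraries, r of their deviations was 0.50 for number 5 of the antibiotic groups. It was −0.21 to 0.21 for the other pairs, and no block was used.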

Additional observations from a re-analysis of the deposited data

Results flagged for a closer look

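In 28 of 264 tests of 44 histone genes and sums within a group of a set, 1 library stood apart from the rest by Dixon's criterion. Chance alone flags about 1 in 20 of separate tests. These tests are not separate, since histone genes moved together from library to library, so the count of flags cannot be set against that rate. The flags fell in 6 libraries. Saline-antibiotic 1 was high for Hist1h2an (23.2 CPM, others 12.2 to 16.1), Hist1h4m (43.4, others 26.5 to 32.8), H2ac15 (36.3, others 20.2 to 25.5), H2bc8 (54.2, others 30.8 to 38.2), H3c6 (74.01, others 40.7 to 51.5), H4c9 (19.5, others 11.2 to 14.2) and H2bc1 (1.77, others 1.01 to 1.22). Saline-water 6 was high for Hist1h2al (11.03 CPM, others 7.07 to 8.93), the H2B sum (410.7, others 222.9 to 303.3), the H4 sum (651.7, others 377.8 to 489.8), H2ac15 (36.98, others 20.2 to 27.5), H2ac4 (35.1, others 19.9 to 26.6), H4c3 (79.99, others 48.4 to 61.3), H4c9 (24.1, others 11.7 to 16.97) and H2bc1 (2.90, others 1.204 to 1.92).

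Saline-water 9 was high for Hist1h2al (13.4 CPM, others 8.11 to 9.57), H1f4 (115.8, others 73.1 to 88.7) and H1f3 (126.3, others 67.3 to 88.1). Leptin-antibiotic 3 was high for H2bc4 (76.4 CPM, others 48.6 to 57.9), H4c8 (94.5, others 49.3 to 65.3) and H2bc13 (23.6, others 9.72 to 14.5). Leptin-water 3 was low for H2bc4 (31.3 CPM, others 39.6 to 44.3), H4c3 (37.3, others 51.8 to 59.3) and H2ac6 (4.76, others 6.58 to 7.72). Saline-water 13 was high for H2ac1 (1.08 CPM, others 0.119 to 0.433), H2bc4 (71.9, others 42.97 to 52.5) and H4c14 (116.2, others 21.3 to 33.9) and low for H4c3 (31.9, others 52.2 to 62.9). Leptin-antibiotic 3 and Saline-antibiotic 1 were also among the 6 libraries high in pancreas genes, and the part of that in their histone values was not tested.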

How the results depend on the processing

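For leptin on water, the count of 59 histone genes called was 0, and it was 2 with DESeq2, 1 without the libraries high in pancreas genes (H1f2, adjusted p = 0.0354), and 0 to 2 when each library was left out in turn. Pearson's r of log2 CPM values (not deviations) between the histone sum and Mki67 in set MT was 0.889 when its 5 libraries with high pancreas genes were left out, an alternative chosen after seeing the data, against 0.729 with all. Of the other count values under an alternative, 459 were within 1.5 times the reported count, and 5 of 44 differences of sums and 460 of 8584 single-gene values had the other sign. None of those 460 was past the threshold, as reported or under the alternative. Of the single-gene values, 19 gained and 26 lost the threshold. Between sets, 18 to 22 of 59 genes were called when each library was left out, and 16 without the libraries high in pancreas genes.

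Over all genes, DESeq2 called 173 for leptin on water, 391 for leptin on antibiotics, 183 for antibiotics in saline-injected and 772 in leptin-injected mice and 75 for the difference of leptin effects between sets, where edgeR called 53, 73, 29, 346 and 1. Limma voom called 124 for leptin on water, 94 for antibiotics in saline-injected and 1356 in leptin-injected mice. Without the libraries high in pancreas genes edgeR called 25, 0, 19 and 210 in the first 4 comparisons, and 5 (set M) and 2 (set MT) for leptin on water in each set alone. With the replicate number as a block, 0 of 59 histone genes were called for leptin on water and on antibiotics, and 0 and 12 of all genes. Most same-numbered libraries did not deviate together. The cause of these shifts was not tested. Counts of 215 or more per library for the 5 genes leave spread between libraries, and near-copies that share reads, as the limits.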
